A study of Mus musculus with 4 samples.

Results

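The doublecortin family kinases Dclk1, Dclk2 and Dclk3 and the founding member Dcx were followed through single cells of the mouse Tbx1 lineage, as 4 of the 32285 genes in the count files. These genes were chosen by name because Dclk1 had been higher in epithelium of the conditional knockout, so the measured values that chose them were the Dclk1 counts of the epithelial cells in all 4 libraries. The genotype differences in epithelium, and in the ectoderm, endoderm and otic cells that make it up, are therefore given as a description with no test.

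The study asked what loss of Kmt2d, which encodes a histone H3 lysine 4 methyltransferase, does to cells that have expressed Tbx1. Embryos at E9.5, labelled outbred SwissWebster and kept, by the methods of the study, on a mixed background with C57BL/6, were dissected from the first pharyngeal arch backwards with the heart, pooled by genotype, and sorted for EGFP-positive, DAPI-negative cells. The conditional knockout (cKO) was Tbx1Cre/+; Kmt2d F/F; GFP F/+ and the conditional heterozygote (cHet), which served as control, was Tbx1Cre/+; Kmt2d F/+; GFP F/+. Every embryo thus carried the Cre allele at Tbx1, so that Tbx1 was heterozygous throughout, and at least 1 floxed Kmt2d allele. Cre marks any cell with present or past Tbx1 expression, and no library without Kmt2d recombination was analysed here. Each genotype had 2 libraries. Where 4 values are listed, they belong to cHet and cKO of Rep1 and then to cHet and cKO of Rep2. A library of Rep1 came from 4 pooled embryos and used the older Next GEM chemistry, whereas the 3 embryos of each Rep2 library went through GEM-X.

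Doublecortin and its relatives bind and stabilize microtubules through paired doublecortin domains. Dcx is transiently made by newly born, migrating neurons and is widely used to mark them. Dclk1 and Dclk2 join doublecortin domains to a serine/threonine kinase domain related to the calmodulin-dependent kinases, and Dclk1 is also produced in short forms that keep the kinase and lack those domains. In adult gut Dclk1 is known as a marker of tuft cells. Dclk3 has the kinase but is the most divergent member.

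The 4 genes lie on 3 chromosomes of mm10 (GRCm38). Dclk1 (ENSMUSG00000027797) spans 55242364 to 55539068 on the plus strand of chromosome 3, and Dclk2 (ENSMUSG00000028078) spans 86786151 to 86920852 on the minus strand of the same chromosome. Dclk3 (ENSMUSG00000032500) spans 111439081 to 111489118 on the plus strand of chromosome 9. Dcx (ENSMUSG00000031285) is X-linked, on the minus strand from 143855842 to 143933311. The annotation gives Dclk1 15 transcripts, Dclk2 9, Dcx 6 and Dclk3 1, and a count is the sum over all transcripts of a gene, so long and short Dclk1 were not separated. The 250 bases before the RefSeq start are shown for 3 members, from RefSeq on GRCm38.p6, with each CpG in capitals, because the members differ in CpG content at their starts. RefSeq places some starts differently from the gene spans above, which come from GENCODE: the Dcx window begins inside the stated span and the Dclk2 window lies beyond its end.
Dclk1, chr3:55242114-55242363, plus strand: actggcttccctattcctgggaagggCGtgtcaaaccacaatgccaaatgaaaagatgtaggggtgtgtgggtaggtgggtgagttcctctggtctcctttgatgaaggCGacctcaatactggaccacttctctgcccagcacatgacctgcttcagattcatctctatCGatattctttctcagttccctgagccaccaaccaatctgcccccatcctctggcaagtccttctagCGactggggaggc
Dclk2, chr3:86920885-86921134, minus strand: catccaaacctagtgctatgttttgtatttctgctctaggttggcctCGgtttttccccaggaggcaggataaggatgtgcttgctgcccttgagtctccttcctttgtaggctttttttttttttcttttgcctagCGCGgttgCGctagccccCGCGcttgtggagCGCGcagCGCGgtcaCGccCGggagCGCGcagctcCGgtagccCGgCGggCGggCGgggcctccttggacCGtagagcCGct
Dcx, chrX:143933220-143933469, minus strand: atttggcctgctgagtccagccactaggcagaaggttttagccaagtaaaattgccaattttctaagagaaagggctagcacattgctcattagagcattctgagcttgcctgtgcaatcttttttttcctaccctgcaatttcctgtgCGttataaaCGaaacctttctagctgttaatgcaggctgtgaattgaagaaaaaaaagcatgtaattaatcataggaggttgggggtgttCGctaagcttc
Dclk2 had 21 CpGs in this window, a number reached by 16.3% of 32851 promoters in the same table, whereas Dclk1 had 4 and Dcx had 3, below the median of 6. A second Dclk1 start, inside the gene, had 4 CpGs in its window (chr3:55461478-55461727) and a second Dcx start had 3 (chrX:143933125-143933374). Both strands were searched for the E-box letters CAGATG and CAGCTG, the second of which reads the same on either strand, and none of these 5 windows held either. CAGATG was in 14.4% and CAGCTG in 13% of all windows. Dclk3 had no entry.

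After filtering, 33448 cells were kept, between 5869 and 11938 per library, with a median of 17240.5 to 22972 UMIs per cell. The 4 libraries held 179454146 to 234726019 UMIs in all. Clusters were named from marker genes and are called by the resemblance: 592 otic-like, 1103 ectoderm-like and 653 endoderm-like cells formed the epithelium, 603 cells were neuronal-like, 1915 endothelium-like, and 23414 mesodermal, among them mesenchyme-like, posterior second heart field-like (pSHF-like), branchiomeric muscle-like (BrM-like) and cardiac-like cells. The other 5168 cells, or 15.5%, stayed unnamed. Library pairs made with the same kit shared 12 and 41 cell barcodes, and pairs made with different kits shared 0. The cHet Rep1 file held 37093 barcodes, many more than the cells the study lists for that library, whereas the other 3 files, with 9307 to 16775 barcodes, hold as many as the cells listed. In each file the smallest barcode had 500 or 501 UMIs. Kept cells held 60.0% of UMIs in cHet Rep1, against 86.1% to 91.6% in the others. Whether this came from the library itself or from how its file was filtered was not tested. The cHet Rep1 library had the lowest otic Dclk1 and neuronal Dcx levels of the 4 libraries, ambient RNA was not corrected, and its part in these values was not tested. Cells of other types were also unevenly spread. Among neuronal-like cells, 50.6% in cHet Rep1 and 31.9% in cKO Rep1 carried 2 or more UMIs of the mesenchyme genes Prrx1, Twist1 and Pdgfra, against 6.34% and 9.46% in cHet and cKO Rep2. Among otic-like cells the shares were 24.2% in cHet Rep1, 3.33% in cKO Rep1, 6.06% in cHet Rep2 and 1.85% in cKO Rep2. The genotype differences of Dclk1 in otic-like cells and of the tested members in neuronal-like cells are given with and without these cells. The single-cell descriptions of otic-like and of Dcx-positive cells hold them. Single embryos were not resolved within a pool. The main fits hold the replicate number, so their p-values do not measure the spread between the 2 pools of a genotype. They measure how far the cKO to cHet difference within a replicate varied between the 2 replicates, with variance estimated partly across genes.

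Dclk1 had UMIs in each of the 9 named groups. In CPM, the UMIs of a gene for each 1e6 UMIs of the group, it averaged 243 ± 114 in otic-like cells (SD, n = 4 libraries), followed by 112 ± 30.2 in mesenchyme-like cells and 59.6 ± 20 in neuronal-like cells. Endoderm-like cells had 31.2 ± 12.4, pSHF-like cells 29.8 ± 4.96, BrM-like cells 22.8 ± 3.30, cardiac-like cells 16.8 ± 3.33 and ectoderm-like cells 12.8 ± 1.12. The lowest level was in endothelium-like cells, at 3.77 ± 2. Each neighbouring pair in this order overlapped over the libraries except ectoderm-like and endothelium-like cells. The otic range of 139 to 405 met the mesenchyme range of 84.8 to 143 only through cHet Rep1. Within each library the otic level was above that of the mesenchyme-like group as a whole, though not above each of its clusters. The level also differed between replicates: the Rep2 mean was 1.84 times the Rep1 mean in otic-like cells, 1.60 times in mesenchyme-like cells and 0.972 times in BrM-like cells. Kit and embryo pools changed together between the replicates and cannot be told apart.

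**Figure D1:**
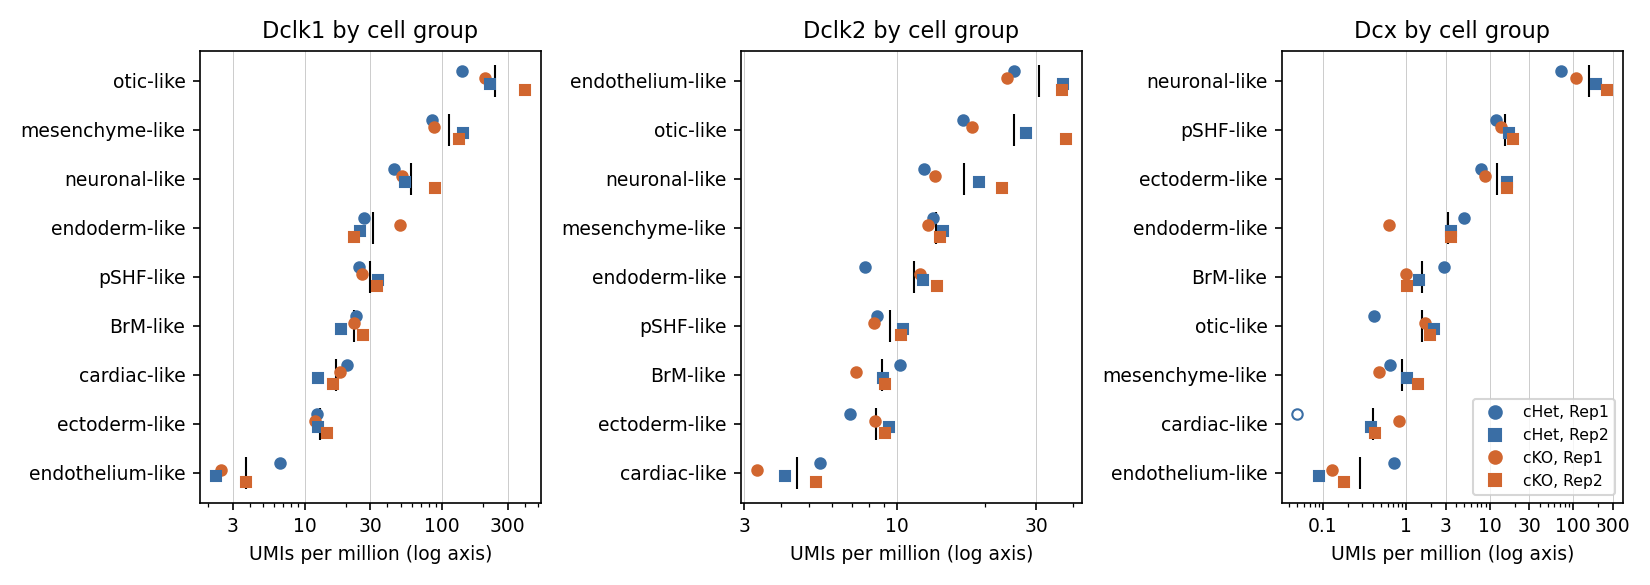
Level of Dclk1, Dclk2 and Dcx in each cell group, in CPM on log axes, with 1 point per library (blue cHet, orange cKO, circles Rep1, squares Rep2), a bar at the mean of the 4 libraries and an open symbol for a library at 0. By the mean, Dclk1 leads in otic-like cells, Dclk2 in endothelium-like cells at 23.8 to 36.9, and Dcx in neuronal-like cells at 71.5 to 259. In cKO Rep2 Dclk2 is higher in otic-like cells, at 38.0 against 36.8.

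Within the mesenchyme the Dclk1 level was uneven. Cluster 7 averaged 178 CPM and cluster 5 averaged 159, while cluster 1 averaged 55.6 and cluster 14 averaged 32.5. In cHet Rep1 and Rep2 cluster 7 had 143 and 234 CPM, above the 139 and 225 of otic-like cells. In cKO Rep1 and Rep2 it had 129 and 207, below the otic 204 and 405. Mixed mesenchyme-like cluster 20, which counted in mesoderm alone, averaged 174. Within the endothelium, the largest cluster had 0.645 to 1.64 CPM. After each cell was thinned to 5000 UMIs, Dclk1 was seen in 32.3% of otic-like cells in cHet Rep1 (95% exact binomial interval 23.3 to 42.5), 48.9% in cKO Rep1 (38.2 to 59.7), 49.2% in cHet Rep2 (40.4 to 58.1) and 59.0% in cKO Rep2 (52.9 to 65). In endothelium-like cells, the group with least Dclk1, the thinned shares were 3.10%, 0.0%, 0.762% and 1.81% in the same order, where 0 of 275 cells allows a share of up to 1.09% by 3 counts of the total and up to 1.33% by the exact interval. These intervals and limits cover counting error only. Median depth before thinning was 18315 to 26504 UMIs in otic-like and 16628.5 to 27154 in endothelium-like cells. Unthinned, 67.7% to 83.4% of otic-like and 3.81% to 8.43% of endothelium-like cells had a Dclk1 UMI.

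Across the 9 named groups, the genes whose mean level followed that of Dclk1 most closely were Mmgt1, Bche, Sox9, Klhl29 and Rtca, with Pearson r of 0.930, 0.929, 0.918, 0.912 and 0.889 on log2(CPM + 1). The 9 points share libraries, so the coefficients are a description. Sox9, a transcription factor of cartilage and otic development, had the range most like that of Dclk1, at 259 CPM in otic-like and 140 in mesenchyme-like cells against 6.95 in endothelium-like cells. Mmgt1 and Rtca had high coefficients over a narrow range, 18.6 to 31.3 and 32.7 to 45.7 CPM. With library-by-group points in place of group means, 1 of these 5 genes stayed among the 5.

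Dclk1 was then compared between genotypes in the epithelium, the contrast it was chosen on. The epithelium as a whole held 46.3 CPM of Dclk1 in cHet Rep1, 92.0 in cKO Rep1, 71.5 in cHet Rep2 and 115 in cKO Rep2, so that cKO was higher within each replicate, and both cKO libraries were above both cHet libraries. The fitted log2 fold change, cKO over cHet, was 0.83 ± 0.09 (SE). The SEs of epithelium and its cell types come from fits to the values that chose Dclk1, so they lend a difference no support. The difference lay mainly in otic-like cells. There the level was 139 in cHet Rep1, 204 in cKO Rep1, 225 in cHet Rep2 and 405 in cKO Rep2, a log2 difference of 0.56 in Rep1 and 0.85 in Rep2 and a fitted one of 0.71 ± 0.10. In cKO Rep1 a single cell held 75 of the 487 Dclk1 UMIs of 90 otic-like cells. The highest cell held 21 in cHet Rep1, 37 in cHet Rep2 and 43 in cKO Rep2. The part of that cell in the Rep1 difference was not tested. Here cKO Rep1 was below cHet Rep2, so the genotypes overlapped across kits and separated within each.

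Ectoderm-like cells differed little: 12.4, 12, 12.5 and 14.5 CPM of Dclk1, with a fitted log2 fold change of 0.12 ± 0.21. Endoderm-like cells had 27.1, 49.7, 25.2 and 22.9, a log2 difference of 0.81 in Rep1 and -0.08 in Rep2. The cKO Rep1 value rests on 79 UMIs in 65 cells.

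Otic-like cells held 74.0%, 81.7%, 80.9% and 88.3% of all epithelial Dclk1 UMIs, although they supplied 24.6%, 36.8%, 25.7% and 25.1% of all epithelial UMIs. The mix of cell types therefore moved with genotype in Rep1. With the same mix of the 3 types in each library, the epithelial level became 51.9, 76.2, 75.6 and 126, a log2 difference of 0.55 in Rep1 and 0.74 in Rep2. Without otic-like cells it was 16, 26.6, 18.4 and 18, or 0.74 and -0.04.

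**Figure D2:**
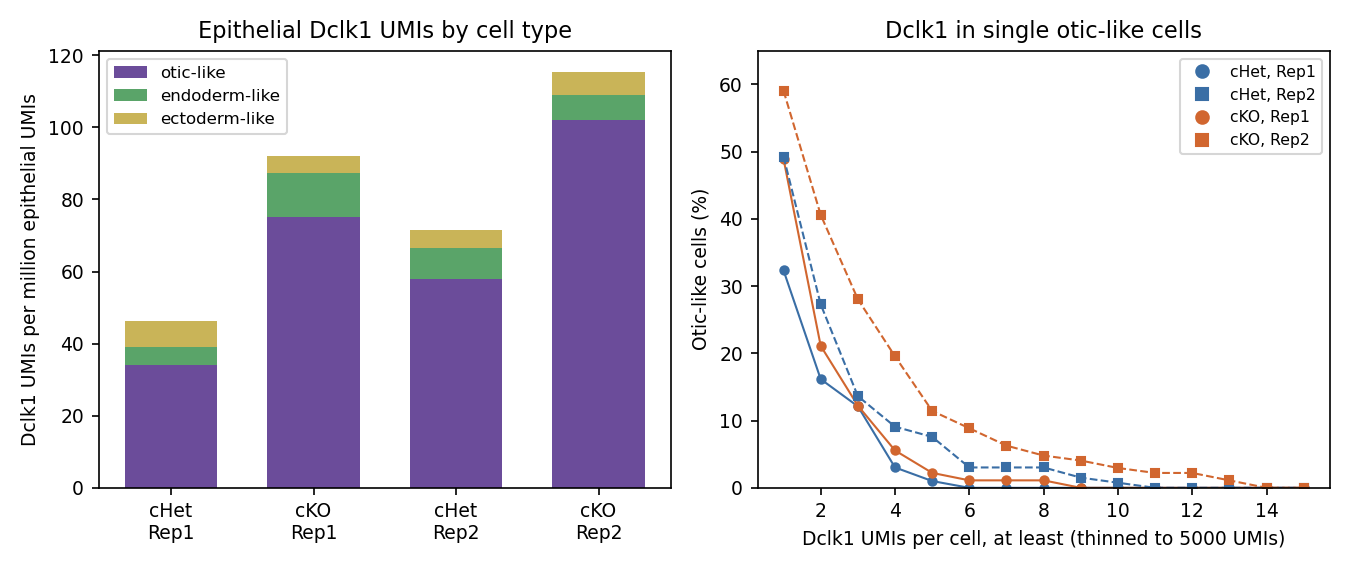
Left, CPM of Dclk1 over all epithelial UMIs in each library, stacked by the cell type they came from; right, the share of otic-like cells with at least the given number of Dclk1 UMIs after thinning to 5000 UMIs per cell, 1 line per library. The otic part grows from 34.2 to 75.2 in Rep1 and from 57.8 to 102 in Rep2, and cKO Rep2 holds the most cells with 5 or more Dclk1 UMIs, 11.4%.

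At single-cell level the median otic-like cell was higher in cKO in both replicates. The median otic-like cell had 0.581 Dclk1 UMIs for each 1e4 of its UMIs in cHet Rep1, 1.16 in cKO Rep1, 1.23 in cHet Rep2 and 2.26 in cKO Rep2. The upper quartile was 2.14 and 2.36 in cHet and cKO Rep1 and 2.78 and 5.84 in Rep2, so the upper tail separated mainly in Rep2.

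The otic label held in each library, with the summed level of the 11 otic markers at 830, 989, 1310 and 1370 CPM. Of the defining markers, Lmx1a ranged from 195 to 339, Pax2 from 29.8 to 97.8 and Oc90, an otoconial protein gene, from 29.4 to 75.4, while Otol1 was near 0 at 0.410 to 1.57. The summed level of the 17 mesenchyme markers was 415 in cHet Rep1 and 152 to 247 in the other 3 libraries, and no marker of that list was at 0 in all 4 libraries. Without the otic-like cells that carried Prrx1, Twist1 and Pdgfra UMIs, Dclk1 was 147, 206, 227 and 405, a log2 difference of 0.49 in Rep1 and 0.83 in Rep2. Per 1000 UMIs of the otic markers, Dclk1 had 168, 207, 171 and 295 UMIs, which set the replicates closer together and kept cKO higher by 0.30 and 0.78 (log2). The neurogenic gene Neurog1 was at 0 in both Rep1 libraries and at 14.1 and 19.8 in cHet and cKO Rep2, and the part of neurogenic otic cells in the Rep2 value was not tested. The 10 tuft cell markers summed to 5.46 to 12.3 CPM in otic-like cells and to 7.87 to 13 in the epithelium, against 10.2 to 13.6 in all cells.

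Otic-like cells were divided within each library at the median of Dclk1 per UMI, and genes were ranked by the ratio of the upper to the lower cells, a choice made after the values were seen. Genes were taken from those with at least 20 CPM and the same direction in all 4 libraries, so that agreement is part of the choice. Of 6800 genes at that level, 1787 had the same direction in all 4 libraries. The genes highest in the Dclk1-rich cells included Tmem132d, with a mean log2 ratio of 2.07, Fgf14 with 1.82, the synaptic vesicle calcium sensor Syt1 with 1.64 and the secreted phosphoprotein Spp1 with 1.58. Zfp385b, Nlgn1 and Plcb1 followed with 1.24, 1.22 and 1.20, and then Ntrk2, the receptor of brain-derived neurotrophic factor, with 1.19. Spp1 is a leading gene of the otic-like cluster, but Tmem132d is one of mesenchyme-like cluster 20, Fgf14 of cluster 21 and Ntrk2 of cluster 2. The part of cells or RNA of other types in these ratios was not tested. Lowest in the same cells were Rgcc at -1.60 and Glis3 at -1.53, with the carbonic anhydrase Car4 at -1.16 and Oc90 at -0.96. Between genotypes these genes did not all follow Dclk1: Spp1 was 183, 330, 321 and 323 and Syt1 44.7, 63.0, 58.0 and 96.9 CPM, and Fgf14 was lower in cKO Rep1 (32.7 against 40.2) and higher in cKO Rep2 (85.9 against 9.71).

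Neuronal-like cells were the first group outside the epithelium in which the genotypes were tested. Dcx, which had its highest level in these cells, was at 71.5 CPM in cHet Rep1, 108 in cKO Rep1, 189 in cHet Rep2 and 259 in cKO Rep2. It was higher in cKO within each replicate, by 0.62 and 0.47 (log2), and the genotypes overlapped across replicates because Rep2 was 2.50 times Rep1. The fit with the replicate as a block gave a log2 fold change of 0.53 ± 0.10 (SE), a fold of 1.45. With adjusted p = 0.0152 by edgeR's quasi-likelihood test with Benjamini-Hochberg adjustment, Dcx was called higher in cKO in this fit. In that fit 82 of 12057 genes passed, or 0.68%, of which 63 were higher and 19 lower, and Dcx was 1 of the 3 tested members. The call was kept in 1 of 11 alternatives with an adjusted p, which ranged from 0.00035 to 1.0, while the log2 fold change stayed positive in those 11, from 0.28 to 0.62. The 4 fits without 1 library mix the kits and leave a genotype with 1 library, so only their effect sizes are given. Their log2 fold changes were -0.06 without cKO Rep2, 0.06 without cHet Rep1, 0.92 without cKO Rep1 and 1.19 without cHet Rep2.

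Dclk1 in neuronal-like cells was 44.4, 51.0, 53.9 and 89.0 CPM. Its log2 fold change was 0.49 ± 0.15, 0.23 in Rep1 and 0.73 in Rep2, and did not pass (adjusted p = 0.215 by edgeR). Over 11 alternatives it ranged from 0.05, with thinned cells, to 0.79, and without 1 library from 0.22 to 0.73. Dclk2 was 12.4, 13.5, 19.1 and 22.9, with a log2 fold change of 0.22 ± 0.22 (adjusted p = 0.999 by edgeR). Dclk3 had 1 UMI in all neuronal-like cells and was not tested.

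The neuronal-like cells of Rep1 held more mesenchyme RNA, and more in cHet than in cKO. The 17 mesenchyme markers summed to 849, 542, 353 and 303 CPM, and the 14 neuronal markers to 2670, 3270, 7240 and 7580. No gene of either list was at 0 in all 4 libraries. Dcx moved with the neuronal sum: per 1000 UMIs of those markers it had 26.8, 32.9, 26.1 and 34.1 UMIs, so that the replicates nearly coincided and cKO remained higher, by 0.30 and 0.39 (log2). Without the cells with mesenchyme UMIs, 88, 92, 133 and 134 cells were left, and Dcx was 110, 140, 194 and 268, with a log2 fold change of 0.43 ± 0.10 (adjusted p = 0.277 by edgeR). Dclk1 in the same cells was 31.4, 54.4, 55.3 and 94.3, higher in cKO in both replicates, with a log2 fold change of 0.79 ± 0.15 that did not pass (adjusted p = 0.14 by edgeR, 9 of 11143 genes called). Per 1000 UMIs of the neuronal markers, over all neuronal-like cells, Dclk1 had 16.6, 15.6, 7.44 and 11.7 UMIs, a log2 difference of -0.09 in Rep1 and 0.66 in Rep2, so the direction in Rep1 turned. Dclk2 without the cells with mesenchyme UMIs had a log2 fold change of 0.05 ± 0.27 (adjusted p = 0.997 by edgeR).

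**Figure D3:**
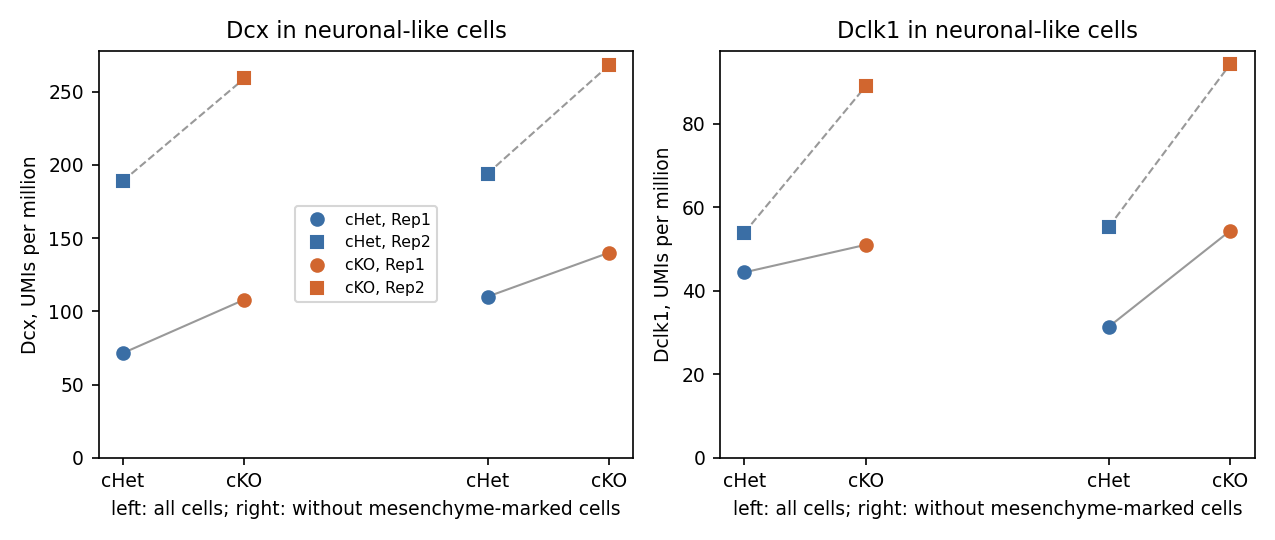
Dcx and Dclk1 in neuronal-like cells, in CPM, for each library (blue cHet, orange cKO, circles Rep1, squares Rep2; lines join the libraries of a replicate), with all neuronal-like cells on the left of each plot and without cells carrying mesenchyme UMIs on the right. Each cKO point lies above the cHet point of its replicate, and the Rep1 Dcx values move from 71.5 and 108 to 110 and 140.

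Genes listed for neuronal microtubules and migration were looked at next, with no test of the list as a whole. Of 50 listed genes 47 were tested in neuronal-like cells, 5 rose and 0 fell, where 0.68% of all genes were called, with a median log2 fold change of 0.14 against 0.00 over all genes. The 82 calls of this fit fell to 0 in 6 alternatives. The tubulin-binding stathmin Stmn2 is also among the 14 neuronal markers. It had 221, 302, 456 and 961 CPM and rose by 0.79 ± 0.11 (log2, adjusted p = 0.000843 by edgeR). Its relatives Stmn3 and Stmn1 rose by 0.76 and 0.55, the Reelin adaptor gene Dab1 by 0.78 and Dpysl3, which encodes a collapsin response mediator protein, by 0.55. Without the cells with mesenchyme UMIs, 1 of the 46 tested rose, where 9 of 11143 genes were called, Dab1, from 52.1 to 93.3 CPM in Rep1 and from 73.5 to 177 in Rep2. Of the doublecortin domain family 4 of 10 genes were tested and Dcx alone passed. None of 12 tested calmodulin-dependent kinase relatives passed, with a median of 0.08, none of 12 cell cycle genes, with a median of -0.21, and none of 3 tested tuft cell markers. Among 5 tested immediate early genes Ier2 fell, by 0.52 (log2).

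Dcx-positive neuronal-like cells were described separately, after thinning to 5000 UMIs. They numbered 45 of 178 in cHet Rep1, 49 of 135 in cKO Rep1, 80 of 142 in cHet Rep2 and 90 of 148 in cKO Rep2, shares of 25.3% (95% exact binomial interval 19.1 to 32.3), 36.3% (28.2 to 45.0), 56.3% (47.8 to 64.6) and 60.8% (52.5 to 68.7). In endothelium-like cells, which should lack Dcx, 1 of 451 cells, or 0.222%, had a thinned Dcx UMI in cHet Rep1 and 0 in the other 3 libraries, which allows shares of up to 1.09%, 0.571% and 0.452% by 3 counts of the total and up to 1.33%, 0.700% and 0.554% by the exact interval. Median depth before thinning was 18068.5 to 24903 UMIs in neuronal-like cells, and 50.6% to 82.4% of them had a Dcx UMI before thinning, against 0.151% to 1.33% of endothelium-like cells. The neuronal tubulin Tubb3 was higher in Dcx-positive than in Dcx-negative cells of each library, from 1070 against 409 CPM in cHet Rep1 to 3260 against 1730 in cHet Rep2. Dclk1 was also higher in them, at 75.6 against 42.1, 53.1 against 32.6, 100 against 16.1 and 100 against 48.3. The proneural gene Neurog2 went the other way, at 66.7 against 161 in cHet Rep1 and 149 against 672 in cKO Rep2, and lower in the Dcx-positive cells of the other 2 libraries too.

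Beyond neuronal-like cells, Dcx was also found at a lower level in part of the mesoderm. Its mean was 157 ± 83.9 CPM in neuronal-like cells (SD, n = 4 libraries), apart from 15.4 ± 3.20 in pSHF-like and 12.3 ± 4.54 in ectoderm-like cells, which overlapped each other. It was 3.14 ± 1.82 in endoderm-like, 1.57 ± 0.861 in BrM-like, 1.55 ± 0.791 in otic-like, 0.882 ± 0.412 in mesenchyme-like, 0.405 ± 0.337 in cardiac-like and 0.278 ± 0.291 in endothelium-like cells, neighbours that overlapped. The pSHF-like level came mainly from cluster 3, led by Cacna2d3, Arg1, Hoxd3, Grem1 and Rdh10, which had 19.5, 19.6, 28.3 and 31.7 CPM, from 162 to 440 Dcx UMIs per library. The other pSHF-like cluster had 0.516 to 1.93. Cluster 3 held 2572 of the 3995 pSHF-like cells, but the marker sums went against that name. Its 10 pSHF markers summed to 266, 250, 384 and 377 CPM, below the 306, 307, 449 and 486 of all cells, and its 9 anterior second heart field markers to 817, 788, 926 and 937, above the 431, 326, 517 and 530 of all cells. Dcx in cluster 3 is therefore not placed in the posterior field, and pSHF-like values hold this cluster. Dcx was seen in 8.08% to 13.3% of thinned cluster 3 cells, in each library above the endothelium-like share. Neuron genes were low there, with Neurod1 at 0.361 to 2.73, Stmn2 at 2.55 to 6.35 and Tubb3 at 8.49 to 16.5 CPM, although the RNA-binding protein gene Elavl4 reached 18.4 to 44.8. Mesenchyme-like cluster 14 had 5.22 and 6.41 CPM of Dcx in Rep1 and 15.2 and 18.9 in Rep2, with Tubb3 at 5.26 to 16.6. In ectoderm-like cells Dcx was 7.96, 8.77, 16.3 and 16.1, seen in 5.36% to 7.98% of thinned cells, and genotypes were nearly level, with a log2 fold change of 0.04 ± 0.21. In endoderm-like cells it was 4.98, 0.630, 3.47 and 3.48, from 9, 1, 15 and 22 UMIs, too few to compare.

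**Figure D4:**
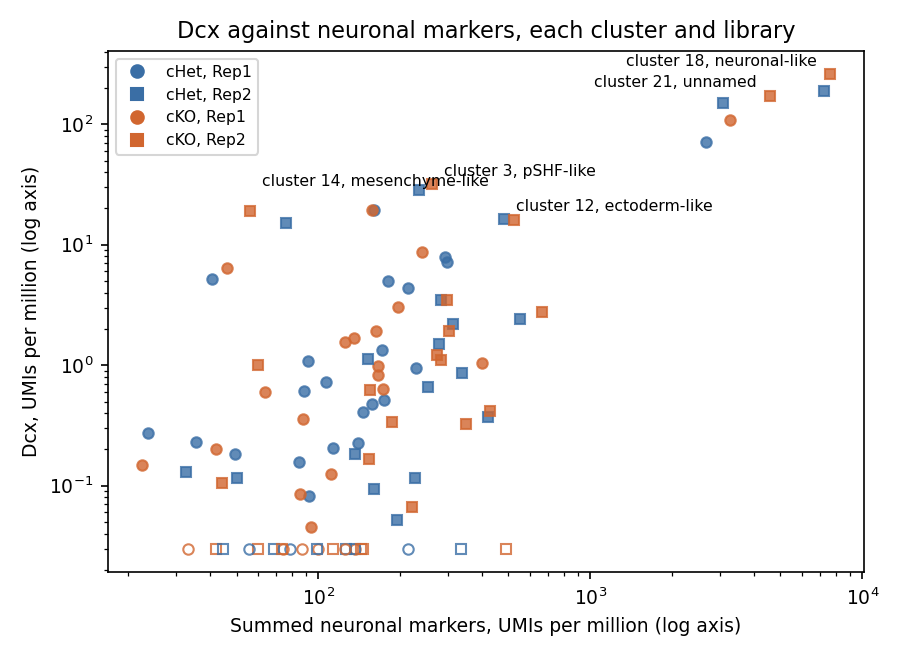
Dcx against the summed level of 14 neuronal markers, both in CPM on log axes, with 1 point for each of 25 clusters and 4 libraries (blue cHet, orange cKO, circles Rep1, squares Rep2) and open symbols at the lower edge for a level of 0. Neuronal-like cluster 18 and, in Rep2 alone, cluster 21 lie at the upper right, and clusters 3 and 14 carry Dcx at 5.22 to 31.7 CPM with neuronal markers far below those of cluster 18.

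Unnamed cluster 21, led by Hes5, Rfx4 and Fabp7, was split by replicate. It held 0.947 and 3.07 CPM of Dcx in cHet and cKO Rep1 and 150 and 173 in Rep2, with Hes5, a Notch target of progenitors, at 283 and 327 in Rep1 and 31.6 and 4.26 in Rep2, and with Neurod1 at 3.79, 24.0, 990 and 1510. Cluster 21 passed 10 neuronal markers, and only the limit on leading genes, set after the data were seen, kept it out of the neuronal-like cells. Adding it to them gave a Dcx log2 fold change of 0.36 (adjusted p = 0.384 by edgeR), so the Dcx call rests on that limit too. The genes whose mean level over the 9 groups was most like that of Dcx were Kmt5b, Hoxb5, Kdm5c, Kansl1l and Ndst1, with Pearson r of 0.943, 0.939, 0.939, 0.933 and 0.932. Hoxb5 had the widest range among them, from 65.5 CPM in neuronal-like and 25.9 in ectoderm-like to 0.207 in otic-like cells, and Kdm5c, an X-linked histone demethylase gene, the narrow range of 78.1 to 104. With library-by-group points, 1 of the 5 stayed.

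In mesoderm no member passed. Dclk1 was 56.8 in cHet Rep1, 67.5 in cKO Rep1, 94.4 in cHet Rep2 and 90.8 in cKO Rep2, higher in cKO in Rep1 and lower in Rep2, with a log2 fold change of 0.12 ± 0.08 (adjusted p = 0.808 by edgeR). The mix of mesoderm types also differed: mesenchyme-like cells were 2060 of 3827 in cHet Rep1, 2932 of 4315 in cKO Rep1, 3638 of 6810 in cHet Rep2 and 4658 of 8462 in cKO Rep2. Within mesenchyme-like cells the Rep1 log2 difference of Dclk1 was 0.06. The part of the mix in the mesoderm value was not tested. Dclk2 was nearly level at 11.4, 11.3, 12.2 and 12.1, and Dcx had 2.90, 2.12, 3.85 and 4.02. In this fit 23 of 18919 genes passed, or 0.122%. By mesoderm type, the Dclk1 log2 fold change was -0.02 ± 0.05 in mesenchyme-like cells (0.236% of 17385 genes called), 0.01 ± 0.08 in pSHF-like cells (0.208% of 14876), 0.30 ± 0.13 in BrM-like cells (0.935% of 14650) and 0.19 ± 0.25 in cardiac-like cells (0.0587% of 11918). In the same order edgeR called 41, 31, 137 and 7 genes and DESeq2 called 68, 4, 17 and 1. In endothelium-like cells the Dclk1 log2 fold change was -0.33 ± 0.46, on 2.25 to 6.60 CPM. There edgeR called 0 of 13048 genes, or 0.0%, with 563 at an unadjusted p under 0.05 and 3 called by DESeq2. The Dcx log2 fold change was 0.18 ± 0.11 in pSHF-like and -0.87 ± 0.35 in BrM-like cells, the latter on 1.01 to 2.83 CPM, with adjusted p = 0.964 and 0.452 by edgeR. Over the 7 groups outside the epithelium, 19 of 28 member-by-group pairs passed the filter on low counts and 1 was called, Dcx in neuronal-like cells.

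**Figure D5:**
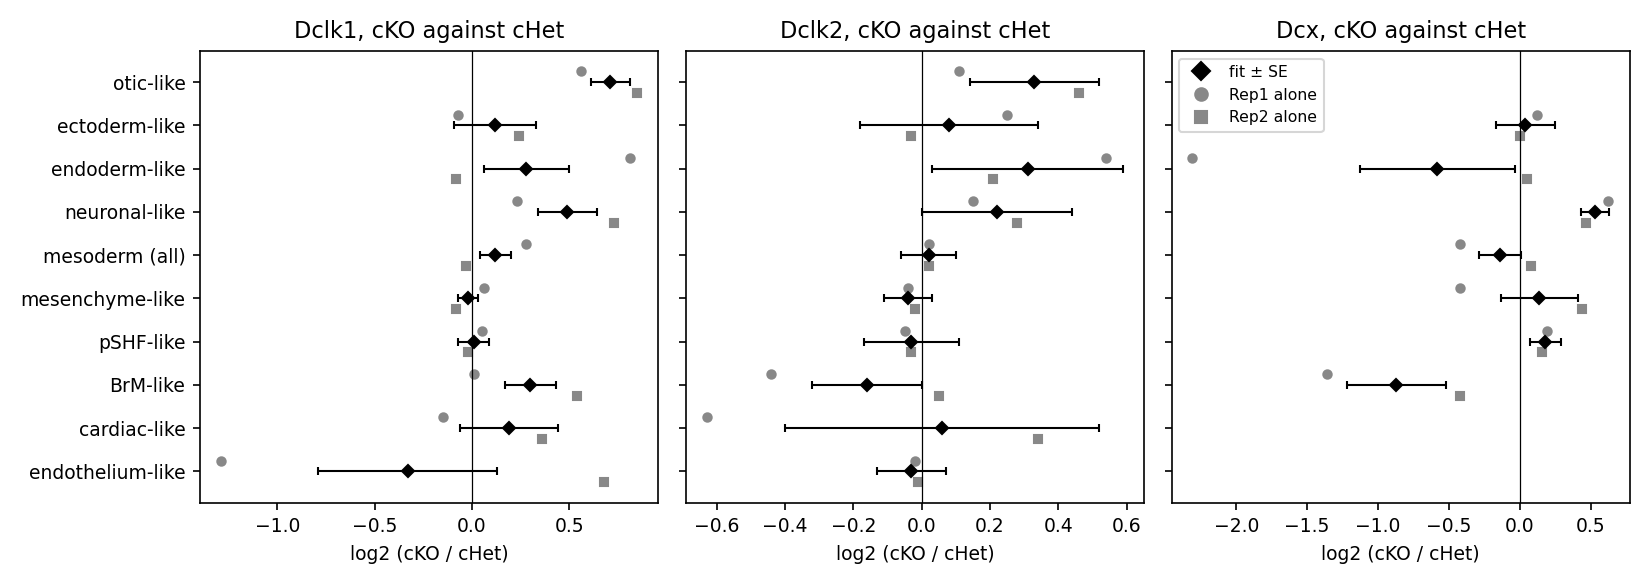
Log2 fold change, cKO over cHet, of Dclk1, Dclk2 and Dcx in each cell group, with the fit with the replicate as a block and its standard error (black diamonds) and the difference within Rep1 (gray circles) and Rep2 (gray squares); members under the low-count filter are left out, and the 3 epithelial groups at the top were part of the contrast that chose the genes. Dclk1 is highest in otic-like cells at 0.71 and near 0 in mesenchyme-like and pSHF-like cells, and Dcx is at 0.53 in neuronal-like cells.

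Of the neuronal microtubule and migration list, 0 of 48 tested genes passed in the mesoderm by edgeR, where 0.122% of all genes were called, with a median log2 fold change of 0.03 against 0.01 over all genes. In BrM-like cells, where 0.935% of all genes were called, 19 of 47 were above 0, with a median of -0.02, and 1 rose, Dab1, by 0.57, from 122 to 187 CPM in Rep1 and from 124 to 170 in Rep2. The Y-linked gene Uty rose in mesenchyme-like cells, by 0.51, where the immediate early gene Fosb fell by 2.56 (log2), and Eif2s3y, Kdm5d and Uty rose in pSHF-like cells, by 0.78, 0.72 and 0.72. Summed over all cells, Uty was 24.1 and 40.6 CPM in cHet Rep1 and Rep2 and 30.6 and 53.8 in cKO Rep1 and Rep2, and Xist was 517, 523, 494 and 466. Uty was thus higher in cKO in both replicates, and the part of embryo sex in the level of the X-linked Dcx was not tested.

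Dclk2, the second kinase, had a pattern of its own. Its mean over the libraries was highest in endothelium-like cells, at 30.7 ± 7.15, although in cKO Rep2 otic-like cells were higher, at 38.0 against 36.8. The endothelium-like values were 25.2 in cHet Rep1, 23.8 in cKO Rep1, 36.9 in cHet Rep2 and 36.8 CPM in cKO Rep2. The genotypes were level within each kit, with a log2 fold change of -0.03 ± 0.10 (adjusted p = 1.0 by edgeR). Otic-like cells followed with 25.1 ± 9.87, neuronal-like cells with 17.0 ± 4.92 and mesenchyme-like cells with 13.6 ± 0.714, and cardiac-like cells were lowest with 4.54 ± 1.01, apart from the 8.44 ± 1.11 of ectoderm-like cells. Neighbours in this order overlapped except at that last step. Unnamed cluster 2, led by Gabra2 and Lsamp, had 28.3 to 34.6 CPM of Dclk2, and mesenchyme-like cluster 7, the one richest in Dclk1 among the named mesenchyme, had 2.48 to 5.91. In otic-like cells Dclk2 was 16.8, 18, 27.6 and 38.0, a log2 difference of 0.11 and 0.46. Thinned cells with a Dclk2 UMI made up 6.06% (95% exact binomial interval 2.26 to 12.7), 11.1% (5.46 to 19.5), 12.1% (7.09 to 18.9) and 19.2% (14.7 to 24.4). These intervals cover counting error within a library and do not compare the genotypes. In cardiac-like cells, the group with least Dclk2, the shares were 3.87%, 2.17%, 4.63% and 2.49%, at a median depth of 17112 to 25122.5 UMIs. In the epithelium as a whole the fitted value was 0.32 ± 0.15.

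Dclk3 was at the edge of detection. It had 0 UMIs in otic-like and ectoderm-like cells, 1 in neuronal-like, 2 in BrM-like, 3 in cardiac-like, 3 in endoderm-like, 6 in pSHF-like, 7 in endothelium-like and 12 in mesenchyme-like cells over the 4 libraries. It passed the low-count filter in none of the 7 tested groups, and no genotype value is given for it.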

How the data were processed

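Single-cell 3′ RNA libraries were analysed from 2 cHet and 2 cKO pools. The authors ran Cell Ranger against mm10; version 8.0.1 stands in the submitters' processing notes and in the Rep2 file headers, and version 7.0.1 in the headers of Rep1. The deposited values are whole-number UMI counts per gene and cell barcode, not normalized, and no barcode in the tables had under 500 UMIs.

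Cells with at least 3000 genes, at most 10% mitochondrial and at most 5% hemoglobin UMIs were kept, cells at or above the Scrublet score that marked the rate expected for the kit and cell number (3.9% to 5.33%) were removed as doublets, 4.03% to 5.78% of cells with ties, ambient RNA was not corrected, and the rest were clustered (2000 variable genes without the 4 members, 30 components, replicates aligned, Leiden resolution 0.8; scanpy 1.11.5). Clusters took a name from at least 3 markers passing 2-fold and 10% of cells, and a non-mesodermal name needed a marker among its 10 leading genes, a limit set after the data were seen that left cluster 21 unnamed. Mesodermal names were exempt from that limit. Mixed mesenchyme-like clusters 8 and 20 counted in mesoderm alone. Levels are CPM, computed from the summed UMIs of a group in a library.

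Counts were summed per library and group and tested with edgeR 4.0.16 (TMM, filterByExpr, quasi-likelihood, replicate as block, Benjamini-Hochberg adjustment at 0.05; 1 residual degree of freedom); DESeq2 1.42.0 was an alternative. Replicate numbers were used as pairs because they mark a shared kit; libraries of the same number deviated together (r from 0.651 to 0.842 over the groups). Scripts were tested on simulated data. The members and gene lists were chosen with earlier results of these data known. Named genes were the members, listed genes past the threshold, up to 6 per list and group by size of change, and the 5 genes most like Dclk1 and Dcx among those with 20 CPM in a group. RefSeq windows matched 3 of 4 members.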

Additional observations from a re-analysis of the deposited data

Results flagged for a closer look

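Among the tested cell types, leaving out the epithelium and the sum over mesoderm, a member that passed the low-count filter was higher in cKO in both replicates of 1 type and lower in both of the other in 5 pairs of types. None of these differences was tested. The log2 fold change of Dclk2, cKO over cHet, was 0.15 in Rep1 and 0.28 in Rep2 of neuronal-like cells and below 0 in both replicates of mesenchyme-like, pSHF-like and endothelium-like cells, with fitted values apart by 0.25 in each case. Without the cells with mesenchyme UMIs the neuronal value was 0.05 ± 0.27 (SE). Dcx was higher in cKO in both replicates of neuronal-like cells and lower in both of BrM-like cells, where the log2 values were -1.36 and -0.42, and the fits were apart by 1.41. The pSHF-like cells, at 0.19 and 0.16, were apart from the BrM-like cells by 1.05.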

How the results depend on the processing

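The Dcx difference in neuronal-like cells passed the threshold in the reported fit and with all genes with a count kept, and in no other alternative run. Without the replicate pairing as a block its log2 fold change was 0.51 and 0 genes were called in neuronal-like cells, and 0 in mesoderm. The Dcx value was 0.54 with RLE size factors, 0.54 with DESeq2, 0.30 with thinned cells and 0.62 with cells of at least 1000 genes. It was 0.28 with doublets kept, 0.36 at a clustering resolution of 0.5 and 0.48 with the members allowed among the variable genes. In alternatives chosen after seeing the data it was 0.36 with cluster 21 added and 0.43 without cells carrying mesenchyme UMIs. The limit that left cluster 21 out of the reported fit was itself set after the data were seen. Leaving out 1 library gave -0.06 to 1.19, with the lowest values without cKO Rep2 and, at 0.06, without cHet Rep1; these fits and the fit without the block mix the kits. The 82 genes called in neuronal-like cells became 9 with RLE size factors, 192 with all genes, 7 with DESeq2, 13 with thinned cells and 9 without cells carrying mesenchyme UMIs. They became 0 with cells of at least 1000 genes, doublets kept, resolution 0.5, members allowed or cluster 21 added. The 23 in mesoderm became 11, 473 and 74 with RLE size factors, all genes and DESeq2, 2 at resolution 0.5, 2 with members allowed, and 0 with doublets kept. Of these changes the cause was not tested.

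Dclk1 was not called in neuronal-like cells or mesoderm under any alternative run, and its neuronal log2 fold change ranged from 0.05, with thinned cells, to 0.79. With doublets kept it was called in BrM-like cells, the 1 call of a member in a mesoderm type. Its log2 fold change in mesoderm was -0.03 in Rep2 alone and -0.09 to 0.31 with 1 library left out. The same omission gave -0.22 to 0.20 in mesenchyme-like, -0.03 to 0.08 in pSHF-like, -0.08 to 0.60 in BrM-like, -0.35 to 0.59 in cardiac-like and -1.28 to 0.65 in endothelium-like cells. Small values also changed sign: in mesenchyme-like cells 0.03 with thinned cells and 0.04 with at least 1000 genes, in pSHF-like cells -0.01 with at least 1000 genes and -0.04 with members allowed, and in cardiac-like cells -0.24, -0.11 and -0.15 with thinned cells, at least 1000 genes and doublets kept. For Dclk2 the omission of 1 library gave -0.04 to 0.43 in neuronal-like, -0.11 to 0.12 in mesoderm and -0.16 to 0.09 in endothelium-like cells; the mesoderm value was -0.05 with doublets kept and -0.02 at resolution 0.5 and with members allowed, and the endothelium value was 0.01, 0.09 and 0.02 with thinned cells, at least 1000 genes and doublets kept. For Dcx in mesoderm the omission gave -0.49 to 0.14, and thinned cells gave 0.02. The described Dclk1 difference was 0.39 to 1.01 in otic-like cells and 0.70 to 0.99 in epithelium with 1 library left out, and 0.35 in epithelium without otic-like cells. With 2 pools per genotype and 1 residual degree of freedom, small differences may be missed.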
